A study of Mus musculus with 6 samples.

Results

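Blood cells of the granulocyte, erythroid and platelet lineages are not endothelial, yet their transcripts can appear in cell preparations made from whole liver. Liver sinusoidal endothelial cells (LSECs) form the fenestrated lining of the hepatic sinusoids. A set of 36 genes that mark these lineages and their progenitors was followed across 6 LSEC libraries by matching gene names in the deposited table, and each of the 36 names had an entry among its 23472 named genes. The set held 21 granulocyte genes, 8 erythroid genes, 5 megakaryocyte and platelet genes and 2 progenitor receptors. The libraries came from C57BL/6 mice aged 7 to 8 weeks, and every mouse, wild type (WT) included, had received tamoxifen by intraperitoneal injection. The 3 RBPjcKO libraries carried a conditional endothelial knockout of Rbpj, the gene of the nuclear factor that carries Notch signals to DNA, and the 3 WT libraries did not. Neither the promoter that drives the recombinase nor the purification of the LSECs is described in the sources used here.

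Granulocytes mature in the bone marrow through stages that load their granules in sequence. Promyelocytes make the primary (azurophilic) granule proteins, among them myeloperoxidase and the serine proteases of the elastase family, and largely stop doing so as they mature. Myelocytes then make the secondary granule proteins such as lactoferrin and cathelicidin, and mature neutrophils carry abundant S100 proteins and the receptor for granulocyte colony-stimulating factor. Liver is a site of blood formation in the fetus, whereas in adult mice this takes place mainly in the bone marrow.

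Replicate numbers were given in accession order and only name the libraries. Named genes received 30958761 to 40459702 counts per library, and 14869 passed the filter on low counts. Levels are TMM-normalised CPM (counts scaled to library size), differences are log2 fold changes of RBPjcKO over WT with their standard error (SE), and a gene was called when edgeR's quasi-likelihood test gave a p under 0.05 after adjustment over all 14869 genes (Benjamini-Hochberg). Rbpj itself stood at 41.6, 46.9 and 45.5 CPM in the WT libraries and at 17, 19.8 and 17.6 CPM in the RBPjcKO libraries. These counts cover the whole gene, including any part outside the deletion. Summed levels of 14 sinusoidal endothelial markers were 29803 to 33503 CPM in WT and 28807 to 33319 CPM in RBPjcKO, so the labelled cell type was present at overlapping levels in both groups. Nothing in the labels says whether the libraries of a group were made from different animals, so each p-value refers to the spread among these libraries, which may be technical. In bulk RNA, fewer cells of a type and less RNA per cell cannot be told apart.

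Of the 36 genes, 30 passed the filter and 5 were called, all higher in RBPjcKO: Mpo, Elane, Prtn3, Fcnb and Ppbp. Of all genes tested 16.7% were called, with 9.0% higher and 7.74% lower in RBPjcKO. The share of called lineage genes, 16.7% of the 30, was near the share called in either direction and above the share called higher. Mpo, Elane, Fcnb and Ppbp passed the filter only through their RBPjcKO libraries and therefore had to differ to be tested at all, and no support is drawn from the number called. No lineage gene was called lower in edgeR's quasi-likelihood test or by DESeq2. At an unadjusted p under 0.05 in edgeR, 10 were higher and 0 lower. For such unadjusted counts the share over all genes was not computed. It is at least the 9.0% called higher for the higher side and the 7.74% called lower for the lower side. Ctsg, Ms4a3, Gata1, Car1, Flt3 and Treml1 did not pass the filter and are given by their counts.

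The sequences upstream of 4 primary granule genes are shown because these genes were high in the same libraries. Prtn3 (chr10:79879667-79883172) and Elane (chr10:79886312-79888216) lie on the forward strand of GRCm38 with 3.14 kb and no named gene between their ends, although a non-coding RNA entry, Bc1, spans both on the reverse strand and held 0 counts. Mpo lies at chr11:87793784-87804412 on the forward strand and Ctsg at chr14:56099881-56102574 on the reverse strand. Each line gives the 250 bases before the gene's start, 5′ to 3′ on the gene's strand, from the RefSeq promoter table (GRCm38.p6), and capitals mark matches to GAGGAA on either strand, a core of the sites that the myeloid factor PU.1 binds. The windows are chr11:87793534-87793783 for Mpo, chr10:79886062-79886311 for Elane, chr10:79879417-79879666 for Prtn3 and, on the reverse strand, chr14:56102575-56102824 for Ctsg.
Mpo: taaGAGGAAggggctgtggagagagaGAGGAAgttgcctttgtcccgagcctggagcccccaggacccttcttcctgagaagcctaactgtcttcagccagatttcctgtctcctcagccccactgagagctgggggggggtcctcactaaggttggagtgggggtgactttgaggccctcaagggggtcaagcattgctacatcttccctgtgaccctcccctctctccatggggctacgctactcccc
Elane: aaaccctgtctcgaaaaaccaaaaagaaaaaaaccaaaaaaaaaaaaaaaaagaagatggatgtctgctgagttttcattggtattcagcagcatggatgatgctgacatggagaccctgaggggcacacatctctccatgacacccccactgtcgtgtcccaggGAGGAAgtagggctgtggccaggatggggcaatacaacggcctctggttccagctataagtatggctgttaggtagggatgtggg
Prtn3: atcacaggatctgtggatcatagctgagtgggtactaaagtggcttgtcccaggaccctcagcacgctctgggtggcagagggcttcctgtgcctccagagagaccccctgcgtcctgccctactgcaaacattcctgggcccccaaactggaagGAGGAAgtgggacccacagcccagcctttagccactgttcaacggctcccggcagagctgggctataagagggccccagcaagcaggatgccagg
Ctsg: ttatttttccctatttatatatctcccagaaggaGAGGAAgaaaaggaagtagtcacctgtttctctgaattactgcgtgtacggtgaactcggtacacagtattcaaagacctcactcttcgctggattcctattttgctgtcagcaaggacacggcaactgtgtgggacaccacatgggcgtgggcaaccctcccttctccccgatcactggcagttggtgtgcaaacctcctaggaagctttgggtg
The match began 247 and 224 bases before the start of Mpo, 85 before that of Elane, 95 before that of Prtn3 and 216 before that of Ctsg. The windows of the other members of the class, Ms4a3 and Gfi1, held no GAGGAA. Across all 32851 RefSeq windows of this length, 23.3% held GAGGAA. None of the 4 windows shown held TTGCNNAA, a core of C/EBP sites (9.56% of all windows), AGATAA, a core of GATA sites (9.99%), or TGGGAA, a core of RBPJ sites (21.6%), on either strand. This does not hold for the whole class. The Gfi1 window held TTGCNNAA 143 bases before the start, and the Ms4a3 window held TGGGAA 177 bases before it. Of the lineage genes, 30 had a window in the table, 26 of them at the deposited start. A match is a description of letters and not evidence of binding.

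Mpo, which encodes the heme enzyme myeloperoxidase of primary granules, was nearly undetected in WT, at 0.164, 0.107 and 0.0949 CPM (6, 4 and 3 counts), and stood at 1.45, 3.71 and 11.4 CPM (56, 149 and 445 counts) in RBPjcKO. Every RBPjcKO library lay above every WT library, an order seen in 20.7% of all genes tested, and RBPjcKO replicate 3 held most of the RBPjcKO counts. The means were 0.122 ± 0.0367 CPM and 5.53 ± 5.23 CPM (SD, n = 3 each), a fitted 43.9-fold difference (log2 fold change 5.46, SE 0.88, adjusted p = 0.00927 in edgeR's quasi-likelihood test). Mpo was called when any 1 of the 6 libraries was left out, with log2 fold changes of 4.36 to 5.89 and adjusted p of 0.00556 to 0.0477. The 43.9-fold value rests on 13 WT counts in all.

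Prtn3, which encodes the serine protease proteinase 3, was the primary granule gene with the most WT counts, 10, 13 and 12, and it passed the filter in all 3 WT libraries. Its levels were 0.273, 0.348 and 0.38 CPM in WT and 1.84, 2.96 and 5.78 CPM in RBPjcKO. The WT libraries were close to each other, and the lowest RBPjcKO library was well above all of them. The mean rose from 0.333 ± 0.0548 to 3.53 ± 2.03 CPM, a 10.5-fold difference (log2 fold change 3.39, SE 0.49, adjusted p = 0.00612 in edgeR's quasi-likelihood test). The call held in each of the 6 fits with 1 library left out, with log2 fold changes of 2.84 to 3.69.

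Elane, which encodes neutrophil elastase, stood at 0.109, 0.0268 and 0.158 CPM in WT (4, 1 and 5 counts) and at 0.389, 0.946 and 3.9 CPM in RBPjcKO (15, 38 and 152 counts). The groups did not overlap, and RBPjcKO replicate 1 was nearest to WT. The fitted log2 fold change was 4.14 (SE 1.02, adjusted p = 0.0341 in edgeR's quasi-likelihood test). This call was kept in 1 of the 6 fits with 1 library left out, the one without RBPjcKO replicate 1 (adjusted p = 0.0218 in edgeR). By the same test the adjusted p was 0.0901 without WT replicate 1, 0.114 without WT replicate 2 and 0.0732 without WT replicate 3. It was 0.0516 without RBPjcKO replicate 2 and 0.0555 without RBPjcKO replicate 3.

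Ctsg, which encodes cathepsin G, another serine protease of primary granules, had 0 counts in every WT library and 5, 15 and 58 counts in the RBPjcKO libraries. Against a floor of 3 counts over the WT group, the mean level in RBPjcKO was at least 23.3-fold higher. Ctsg did not pass the filter with all 6 libraries, and wherever it was tested it entered only through its RBPjcKO libraries and had to differ. It was tested and called with no filter and with a filter of at least 5 counts in 3 libraries, and it was also tested in 4 of the fits with 1 library left out, of which the fit without RBPjcKO replicate 1 called it (adjusted p = 0.0373 in edgeR's quasi-likelihood test). The others gave 0.0953, 0.113 and 0.0884 without WT replicates 1, 2 and 3. Ms4a3, a membrane protein of granulocyte and monocyte progenitors, likewise had 0 counts in all WT libraries, with 1, 3 and 22 counts in RBPjcKO, at least 7.78-fold higher against the same floor. Floors and intervals of this kind cover counting error only, and the sources used here do not say whether a count is a read or a read pair.

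Gfi1, a transcriptional repressor needed for neutrophil development, did not follow the granule genes. It stood at 1.26, 1.52 and 1.3 CPM in WT and at 0.596, 1.22 and 0.642 CPM in RBPjcKO, with all RBPjcKO libraries below all WT libraries, an order seen in 19.6% of all genes tested. Its log2 fold change of -0.73 (SE 0.36) was not called (adjusted p = 0.194 in edgeR's quasi-likelihood test). It was the only member of the 21 granulocyte genes with a lower mean in RBPjcKO.

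**Figure D1:**
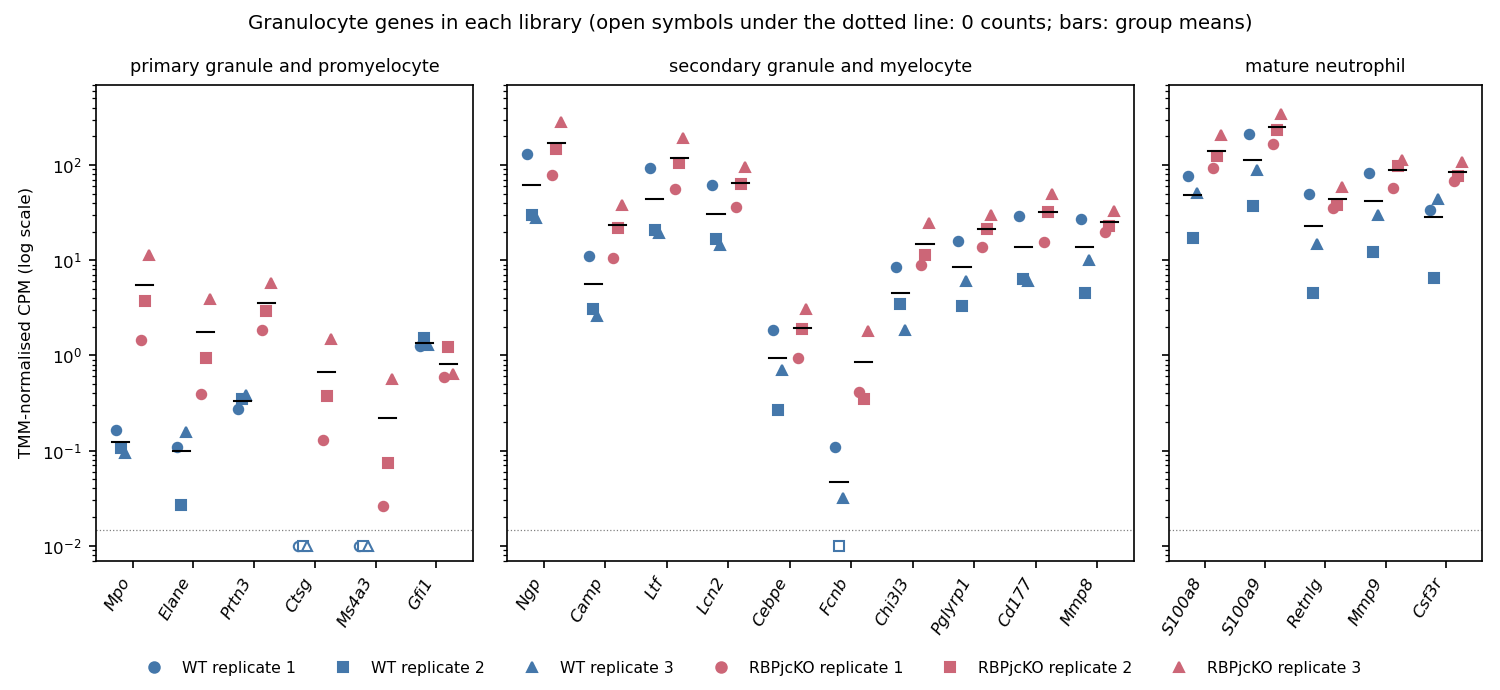
TMM-normalised CPM (log axis) of the 21 granulocyte genes in each library, with WT in blue, RBPjcKO in red, replicates 1, 2 and 3 as circles, squares and triangles, group means as bars and libraries with 0 counts as open symbols under the dotted line. Mpo, Elane, Prtn3, Ctsg and Ms4a3 separate the groups, whereas WT replicate 1 reaches into the RBPjcKO range for most of the later genes.

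Most genes of the later stages were far more abundant, and the groups overlapped in 11 of the 15, the exceptions being Fcnb, Chi3l3, S100a8 and Csf3r. In these 4 every RBPjcKO library lay above every WT library, an order seen in 20.7% of all genes tested. By the authors' RPKM, which is scaled to gene length, S100a9 averaged 188 in WT and 422 in RBPjcKO, S100a8 averaged 102 and 299, and Ngp 44 and 121. On the same scale Mpo averaged 0.0398 and 1.81, and Prtn3 0.289 and 3.03. Per length, the primary granule transcripts were a small part of the granulocyte signal in both groups.

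Ngp (neutrophilic granule protein, chr9:110419808-110423012), the most abundant secondary granule gene, stood at 129.9, 29.5 and 27.4 CPM in WT and at 79, 147 and 281 CPM in RBPjcKO. WT replicate 1 lay above RBPjcKO replicate 1 and far above the other WT libraries. The means of 62.3 ± 58.6 and 169 ± 103 CPM gave a log2 fold change of 1.44 (SE 0.69), which was not called (adjusted p = 0.182 in edgeR's quasi-likelihood test). Its upstream window, chr9:110419558-110419807 on the forward strand, is shown beside those of Mpo, Elane, Prtn3 and Ctsg, with capitals at the matches to TTGCNNAA.
Ngp: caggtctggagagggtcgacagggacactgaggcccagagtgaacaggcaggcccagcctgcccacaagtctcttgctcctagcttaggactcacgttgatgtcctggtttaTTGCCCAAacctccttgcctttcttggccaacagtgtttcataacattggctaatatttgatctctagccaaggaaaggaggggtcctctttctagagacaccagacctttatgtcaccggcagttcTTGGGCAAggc
The matches began 138 and 11 bases before the start. TTGCNNAA was present in 5 of the 8 secondary granule windows, and in 2 of the 4 windows of mature neutrophil genes. GAGGAA was present in 5 of the same 8 and 2 of the same 4. TGGGAA was in 0 of these 8 and in 1 of these 4.

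Ltf, which encodes lactoferrin, an iron-binding protein of secondary granules, repeated the order of Ngp, with 93.2, 20.9 and 19.1 CPM in WT and 56.5, 106 and 191 CPM in RBPjcKO. The ratio of Ltf to Ngp stayed between 0.68 and 0.72 in all 6 libraries, so both transcripts varied between libraries in nearly fixed proportion. Ltf was not called (log2 fold change 1.41, SE 0.68, adjusted p = 0.188 in edgeR's quasi-likelihood test). Lcn2, which encodes the siderophore-binding protein lipocalin 2, had a log2 fold change of 1.07 (SE 0.58, adjusted p = 0.234 in the same test).

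Camp, which encodes cathelicidin, stood at 11.1, 3.1 and 2.59 CPM in WT and 10.6, 21.6 and 37.8 CPM in RBPjcKO. Its log2 fold change of 2.06 (SE 0.65) missed the threshold (adjusted p = 0.0677 in edgeR's quasi-likelihood test) and passed it by DESeq2 (adjusted p = 0.0477). Chi3l3, a chitinase-like protein of myeloid cells, was the abundant secondary-stage gene whose groups did not overlap, at 8.4, 3.48 and 1.83 CPM in WT and 8.99, 11.2 and 24.4 CPM in RBPjcKO, although the gap was small. Its log2 fold change was 1.70 (SE 0.58, adjusted p = 0.0853 in edgeR). The remaining log2 fold changes of secondary-stage genes that were not called ran from 0.86 for the collagenase Mmp8 to 1.34 for the peptidoglycan-binding protein Pglyrp1, with Cebpe, a transcription factor of the myelocyte stage, at 1.06 and Cd177, a neutrophil surface protein, at 1.21.

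Fcnb, which encodes ficolin B, a lectin made by immature myeloid cells, was the secondary-stage gene that was called. It had 4, 0 and 1 counts in WT and 16, 14 and 71 counts in RBPjcKO, or 0.109, 0 and 0.0316 CPM against 0.415, 0.349 and 1.82 CPM. The groups did not overlap, and RBPjcKO replicate 3 held most of the counts. Its log2 fold change was 4.09 (SE 1.05, adjusted p = 0.0379 in edgeR's quasi-likelihood test). The call was kept without RBPjcKO replicate 1 and without RBPjcKO replicate 2 and lost in the other 4 fits, with an adjusted p of 0.059, 0.113 and 0.102 without WT replicates 1, 2 and 3 and 0.0788 without RBPjcKO replicate 3.

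Among the 5 mature neutrophil genes 0 were called in edgeR's quasi-likelihood test or by DESeq2. An unadjusted p under 0.05 was found for 2, a limit that at least 16.7% of all genes tested met. S100a9, a subunit of calprotectin, stood at 209, 37.5 and 88.7 CPM in WT and 166, 235 and 343 CPM in RBPjcKO, with WT replicate 1 above RBPjcKO replicate 1 (log2 fold change 1.15, SE 0.56, adjusted p = 0.191 in edgeR). S100a8, the other subunit, encoded 22.6 kb away on chromosome 3, stood at 76.6, 17 and 51.1 CPM in WT and at 92.4, 125 and 205 CPM in RBPjcKO. Its groups did not overlap, and its log2 fold change of 1.55 (SE 0.52) was not called (adjusted p = 0.0794 in edgeR).

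Csf3r, the receptor for granulocyte colony-stimulating factor, also kept the groups apart, at 33.3, 6.55 and 44.4 CPM in WT and 67.6, 76.1 and 108 CPM in RBPjcKO. Its log2 fold change was 1.58 (SE 0.58, adjusted p = 0.0988 in edgeR's quasi-likelihood test), and it was called only without WT replicate 2 (adjusted p = 0.0475). It differed from the rest of its class in that WT replicate 3, not WT replicate 1, was the highest WT library. The ratio of Csf3r to S100a9 was 0.5 in WT replicate 3, against 0.16 and 0.175 in the other WT libraries and 0.316 to 0.408 in RBPjcKO. Mmp9, the gelatinase of tertiary granules, and Retnlg, a resistin-like secreted protein, had log2 fold changes of 1.08 and 0.93 and were not called (adjusted p = 0.251 and 0.389 by edgeR).

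RBPjcKO replicate 3 was the highest of the 6 libraries in 20 of 21 granulocyte genes, Gfi1 being the exception, and in 21.8% of all genes tested. WT replicates 2 and 3 lay below all RBPjcKO libraries in the same 20 genes and in 26.3% of all genes tested. WT replicate 1 was the highest WT library in 15 of the 21 (36.2% of all genes tested), Ctsg and Ms4a3 having no count in WT. It exceeded the lowest RBPjcKO library in 12 (63.3% of all genes tested), among them 11 of the 15 secondary-stage and mature genes but neither Mpo, Elane, Prtn3, Ctsg nor Ms4a3.

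Without WT replicate 1, 14 lineage genes were called higher in edgeR's quasi-likelihood test in place of 5, against a background of 7.07% of 15121 genes. The 11 added were Camp, Cd177, Chi3l3, Lcn2, Ltf, Mmp8, Mmp9, Ngp, Pglyrp1, Retnlg and S100a9, all of the secondary or mature stage, and Elane and Fcnb were lost. Leaving out WT replicate 2 gave 3 calls (3.09% of all genes higher), WT replicate 3 gave 3 (5.75%) and RBPjcKO replicate 1 gave 6 (6.51%). Leaving out RBPjcKO replicate 2 gave 4 (5.60%) and RBPjcKO replicate 3 gave 3 (5.81%). Leaving out a library was planned as an alternative for each of the 6 and is no reason to prefer the larger count.

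**Figure D2:**
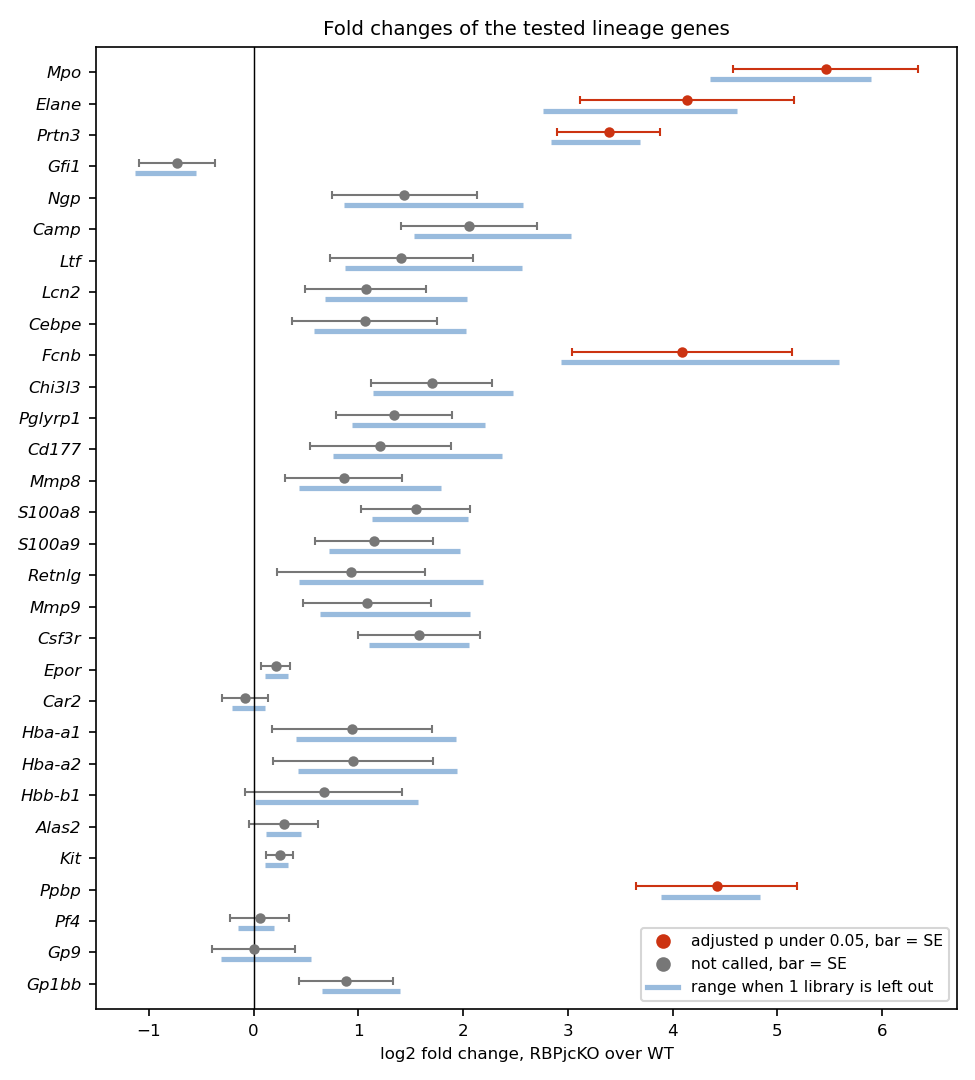
Log2 fold change of RBPjcKO over WT for the 30 tested lineage genes, with points and SE bars in red where the adjusted p was under 0.05 and in grey elsewhere, and blue bars for the range over the 6 fits that leave out 1 library. Mpo, Ppbp, Elane, Fcnb and Prtn3 lie above 3, and the blue bar of Ngp reaches well beyond its SE on the high side, whereas those of S100a8 and Csf3r do not pass it.

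Measured within each library, the sum of Mpo, Elane, Prtn3 and Ctsg, 4 of the 6 genes of their class, stood higher against the later-stage genes in RBPjcKO. The summed level of Mpo, Elane, Prtn3 and Ctsg per 1000 CPM of the 10 secondary-stage genes was 1.44, 5.46 and 7.15 in WT and 15.8, 18.8 and 30.3 in RBPjcKO. Per 1000 CPM of the 5 mature neutrophil genes it was 1.21, 6.19 and 2.76 in WT and 9.12, 14 and 27.3 in RBPjcKO. Neither ratio overlapped between groups, and both were lowest in WT replicate 1, the WT library with the highest level of later-stage genes. By contrast the ratio of the secondary-stage sum to the mature sum was 0.836, 1.13 and 0.386 in WT and 0.579, 0.748 and 0.9 in RBPjcKO, and its groups overlapped. These ratios are descriptions, since their genes were chosen with results known, and no test was made on them. Mpo and Elane passed the filter only through RBPjcKO and Ctsg had 0 WT counts, so the separation is no further support. Gfi1 and Ms4a3, the other genes of the class, were left out. With all 6, the sum was 2.01 CPM beside 88.2 CPM of secondary-stage and 77.8 CPM of mature genes in WT replicate 2. In RBPjcKO replicate 1 it was 4.43 CPM beside 242 and 417 CPM, so with all 6 genes both ratios overlapped.

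**Figure D3:**
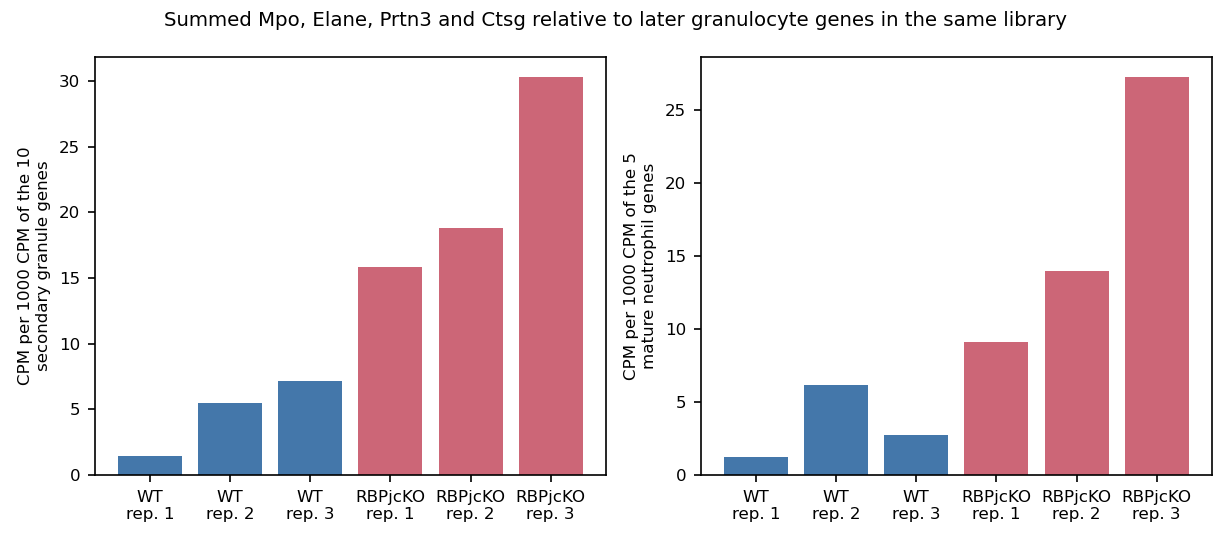
Summed CPM of Mpo, Elane, Prtn3 and Ctsg per 1000 CPM of the 10 secondary granule genes (left) and per 1000 CPM of the 5 mature neutrophil genes (right), 1 bar per library. The RBPjcKO bars run from 15.8 to 30.3 on the left and from 9.12 to 27.3 on the right, and every WT bar is lower. Gfi1 and Ms4a3 of the same class are not in the sum.

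Of the erythroid genes 6 could be tested and 0 were called, in edgeR's quasi-likelihood test or by DESeq2, with 0 at an unadjusted p under 0.05. Gata1, the master regulator of erythroid and megakaryocytic cells, had 0 counts in all 6 libraries, which allows a level of up to 0.0134 CPM over them. Its span is overlapped by 10 predicted genes, also at 0. Of the 178 named genes that lie within the longest of these, Gm10921, 116 had counts. Whether reads of overlapping entries were dropped was not tested, and the limit of 0.0134 CPM holds only if they were not. The globin entries Hba-a1 and Hba-a2 overlap and received almost the same reads (27, 86 and 192 against 27, 86 and 193 in WT), so they are read as 1 measurement of alpha globin.

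Alpha globin, by the Hba-a1 entry, stood at 0.737, 2.3 and 6.07 CPM in WT and 2.07, 9.36 and 5.96 CPM in RBPjcKO (log2 fold change 0.94, SE 0.76, adjusted p = 0.411 in edgeR's quasi-likelihood test). Hbb-b1, beta globin, had identical counts to the overlapping entry Beta-s and stood at 0.819, 2.35 and 5.82 CPM in WT and 1.68, 8.22 and 4.31 CPM in RBPjcKO (log2 fold change 0.67, SE 0.75, adjusted p = 0.56 in the same test). Both globins had their highest level in RBPjcKO replicate 2 and their lowest in WT replicate 1, a different order from that of the granulocyte genes. Their ratio lay between 0.9 and 1.38 in all libraries.

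Epor, the erythropoietin receptor, which is also expressed outside the erythroid lineage, was the most abundant erythroid gene by RPKM, with means of 13.6 in WT and 15.6 in RBPjcKO. Its levels of 28.7, 26.9 and 33.5 CPM in WT and 38.7, 35.9 and 28.6 CPM in RBPjcKO overlapped (log2 fold change 0.21, SE 0.14, adjusted p = 0.322 in edgeR's quasi-likelihood test). Car2, a carbonic anhydrase found in many tissues, stood at 10.8, 10.7 and 8.38 CPM in WT and 10.5, 11 and 6.67 CPM in RBPjcKO, with a log2 fold change of -0.08 (SE 0.22). Both groups held 1 library below the others. Alas2, the erythroid enzyme that begins heme synthesis, had a log2 fold change of 0.29 (SE 0.33). Car1, the carbonic anhydrase typical of erythroid cells, had 2, 0 and 1 counts in WT and 0, 2 and 8 in RBPjcKO, a ratio of 2.99 with an exact 95% counting interval of 0.77 to 16.9.

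Kit, the stem cell factor receptor, was abundant, at 494, 497 and 562 CPM in WT and 534, 731 and 580.4 CPM in RBPjcKO. Its groups overlapped and it was not called (log2 fold change 0.25, SE 0.13, adjusted p = 0.228 in edgeR's quasi-likelihood test). Its RPKM means were 83.7 and 98.4, and endothelial cells are a known site of Kit expression. Flt3, a receptor of early lymphoid and myeloid progenitors, had 4, 6 and 7 counts in WT and 20, 2 and 17 in RBPjcKO and was not tested.

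Of the platelet genes Ppbp and Pf4, neighbouring chemokine genes of the megakaryocyte lineage, Ppbp was called and Pf4 was not. Ppbp (pro-platelet basic protein, chr5:90768518-90770060) had 0, 1 and 1 counts in WT and 12, 16 and 28 in RBPjcKO, or 0, 0.0268 and 0.0316 CPM against 0.311, 0.398 and 0.719 CPM. The groups did not overlap. The ratio of the pooled levels was 25.1, with an exact 95% counting interval of 6.64 to 213, and the fitted log2 fold change was 4.42 (SE 0.77, adjusted p = 0.012 in edgeR's quasi-likelihood test). The call was lost without WT replicate 2 (adjusted p = 0.0514 in edgeR) and kept in the other 5 fits.

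Pf4 (platelet factor 4, chr5:90772435-90773383) begins 2.37 kb downstream on the same strand, with no named gene between. It stood at 3.96, 2.46 and 4.08 CPM in WT and 3.52, 2.91 and 4.52 CPM in RBPjcKO, and its log2 fold change was 0.06 (SE 0.28, adjusted p = 0.897 in edgeR's quasi-likelihood test). The upstream windows of both are shown because the genes adjoin and 1 of them was called: chr5:90768268-90768517 for Ppbp and chr5:90772185-90772434 for Pf4, forward strand, with capitals at TTGCNNAA or GAGGAA on either strand.
Ppbp: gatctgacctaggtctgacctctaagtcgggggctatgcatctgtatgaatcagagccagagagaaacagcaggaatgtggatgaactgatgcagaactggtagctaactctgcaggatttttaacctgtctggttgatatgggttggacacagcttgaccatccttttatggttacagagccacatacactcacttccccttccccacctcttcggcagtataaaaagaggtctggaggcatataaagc
Pf4: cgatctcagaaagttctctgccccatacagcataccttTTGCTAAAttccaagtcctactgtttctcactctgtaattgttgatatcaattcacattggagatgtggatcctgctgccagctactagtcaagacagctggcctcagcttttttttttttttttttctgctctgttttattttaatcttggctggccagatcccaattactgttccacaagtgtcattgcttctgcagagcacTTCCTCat
The Ppbp window held none of the 4 motifs, and that of Pf4 held TTGCNNAA 212 bases and the reverse complement of GAGGAA 8 bases before the start. The difference between the fold changes of Ppbp and Pf4 was not itself tested.

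The other platelet genes were low. Gp9, a subunit of the von Willebrand factor receptor, stood at 0.9, 0.375 and 0.38 CPM in WT and 0.518, 0.373 and 0.77 CPM in RBPjcKO, with a log2 fold change of -0.00 (SE 0.40). Gp1bb, another subunit of that receptor, stood at 1.2, 0.508 and 0.538 CPM in WT and 0.881, 1.62 and 1.64 CPM in RBPjcKO. It had a log2 fold change of 0.88 (SE 0.45, adjusted p = 0.205 in edgeR's quasi-likelihood test), and its entry overlaps a same-strand entry, so its reads cannot be assigned with certainty. Treml1, a receptor stored in platelet granules, had 2, 0 and 0 counts in WT and 6, 3 and 11 in RBPjcKO, a ratio of 8.97 with an exact 95% counting interval of 2.18 to 79.2. The summed level of the 5 platelet genes was 3.37 to 6.11 CPM in WT and 5.38 to 7.93 CPM in RBPjcKO.

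**Figure D4:**
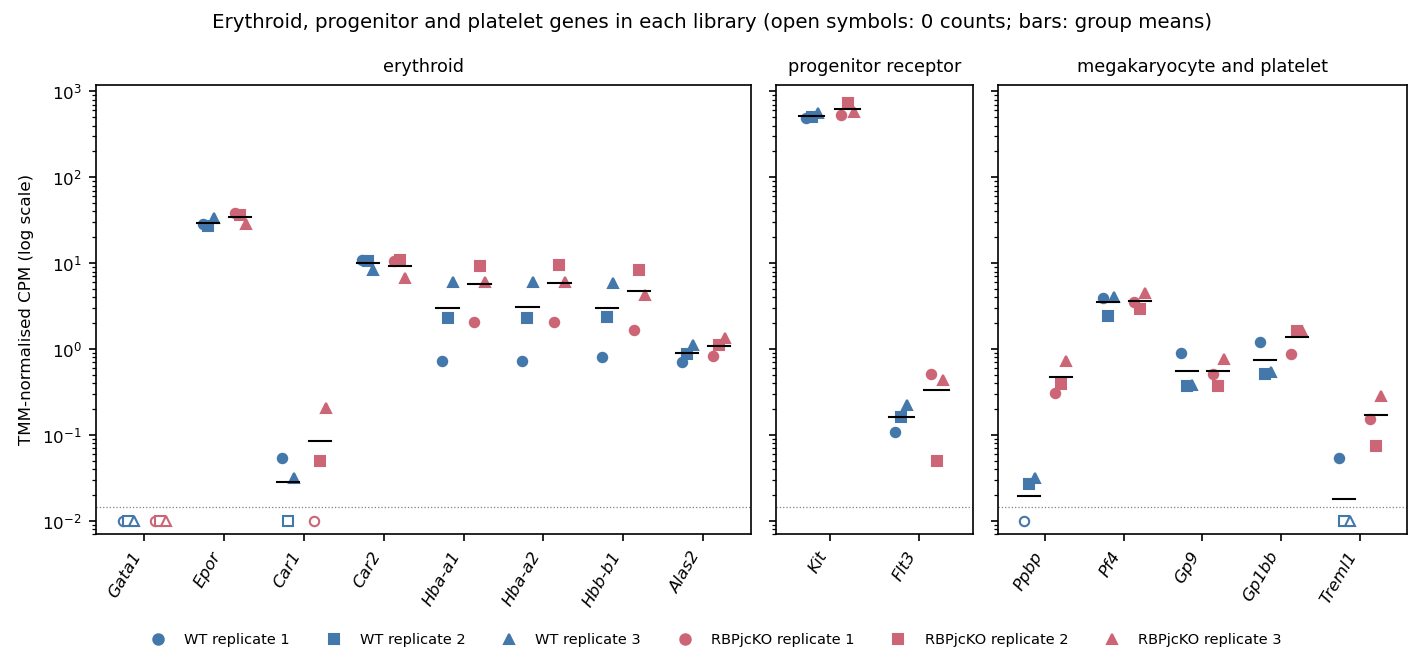
TMM-normalised CPM (log axis) of the 8 erythroid genes, 2 progenitor receptors and 5 megakaryocyte and platelet genes in each library, with colours, symbols and bars as for the granulocyte genes and libraries with 0 counts as open symbols. Ppbp and, at lower counts, Treml1 separate the groups, whereas Pf4, the globins and Kit overlap.

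Further genes of these lineages gave a mixed picture. The edgeR calls in each further list stand beside 9.0% of all genes tested called higher and 7.74% called lower. Of 29 other neutrophil genes 25 were tested, and 3 were called higher and 0 lower in edgeR's quasi-likelihood test. By DESeq2 7 were higher (12.9% of all genes tested) and 0 lower. At an unadjusted p under 0.05, 10 were higher and 0 lower. The median log2 fold change was 0.81 beside -0.00 for all genes tested. With 1 library left out, the number called higher was 3, 0 and 2 without WT replicates 1, 2 and 3 (7.07%, 3.09% and 5.75% of all genes). It was 4, 1 and 1 without RBPjcKO replicates 1, 2 and 3 (6.51%, 5.60% and 5.81%), with 1 called lower without RBPjcKO replicate 2. Stfa2l1, a stefin of the cystatin family, stood at 0.246, 0.0803 and 0.38 CPM in WT and 0.829, 1.29 and 1.57 CPM in RBPjcKO (log2 fold change 2.39, adjusted p = 0.026 in edgeR). Clec4e, the Mincle receptor of myeloid cells, stood at 2.56, 1.98 and 3.01 CPM in WT and 5.8, 7.74 and 13.3 CPM in RBPjcKO (log2 fold change 1.83, adjusted p = 0.014 in edgeR), and Clec4d, a neighbouring lectin receptor, had a log2 fold change of 1.51 (adjusted p = 0.0487). Clec4e lost its call without WT replicate 2 (adjusted p = 0.0586), and Clec4d lost it in all 6 fits (0.0528 to 0.118). Stfa2l1 kept it only without WT replicate 3 (0.0358) and without RBPjcKO replicate 1 (0.0382), and reached 0.0681 in the others. Of the 25 tested genes 19 had a log2 fold change above 0. Cst7, Fpr1, Slpi and Cybb lay below 0, at -0.84, -0.65, -0.60 and -0.44, and Ncf1 stood at 0.05. None of these was called with all 6 libraries, and Cst7 was the gene called lower without RBPjcKO replicate 2 (adjusted p = 0.0278 in edgeR).

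Of 19 genes of eosinophils, basophils and mast cells 5 were tested and 1 was called. Hdc, which encodes histidine decarboxylase, stood at 188, 148 and 126 CPM in WT and 280.0, 257 and 285 CPM in RBPjcKO (log2 fold change 0.83, SE 0.15, adjusted p = 0.0123 in edgeR's quasi-likelihood test), and lost its call without WT replicate 2 (adjusted p = 0.058). Of the mast cell and basophil genes, Cpa3, Fcer1a, Ms4a2 and Tpsab1 had 0 counts in every library, and others had few. Cma1 had 9, 7 and 8 counts in WT and 4, 3 and 3 in RBPjcKO, and Tpsb2 had 0, 0 and 2 in WT and 0 in RBPjcKO. Prss34 and Mcpt8 had 0 counts in WT, with 0, 5 and 6 and 0, 3 and 1 counts in RBPjcKO. None of these genes was tested. The source of the Hdc transcript was not tested.

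Of 30 other erythroid genes 16 were tested, 2 were called higher and 1 lower in edgeR's quasi-likelihood test. Slc2a1, the glucose transporter of red cells and many other cells, had a log2 fold change of 1.44 (adjusted p = 0.0171), Gypc, which encodes glycophorin C, 0.46 (0.0165) and Fech, ferrochelatase, -0.35 (0.0469). Without WT replicate 2 none of these calls remained (0.0683, 0.0782 and 0.141), and without WT replicate 3 none remained either (0.0528, 0.0592 and 0.109). Gypc also lost its call without RBPjcKO replicate 1 (0.0576) and RBPjcKO replicate 2 (0.0536), and Fech kept its call only without RBPjcKO replicate 1 (0.047). Rhag, which encodes a red-cell membrane protein, had 0 counts in all libraries.

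Of 22 other megakaryocyte and platelet genes 16 were tested, 1 was called higher and 3 lower. Itga2b, the platelet integrin subunit CD41, which also marks early blood progenitors, rose from 20.2, 20.3 and 17.7 CPM in WT to 45.6, 31.2 and 42.7 CPM in RBPjcKO (log2 fold change 1.04, SE 0.16, adjusted p = 0.007 in edgeR's quasi-likelihood test), and its call held in each of the 6 fits with 1 library left out. Pdzk1ip1, Rab27b and P2ry1, the last an ADP receptor that endothelium also expresses, had log2 fold changes of -1.56, -1.30 and -0.68 (adjusted p = 0.0231, 0.0408 and 0.0257). Without WT replicate 2 their adjusted p was 0.0765, 0.115 and 0.0699 by edgeR, and their calls were kept in 2, 1 and 3 of the 6 fits.

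Of 23 other stem and progenitor genes 17 were tested, with 3 called higher and 3 lower in edgeR's quasi-likelihood test. Mycn, a MYC family transcription factor, stood at 1.39, 1.9 and 3.16 CPM in WT and 6.19, 8.49 and 16.7 CPM in RBPjcKO (log2 fold change 2.29, adjusted p = 0.0167), and Irf8, a transcription factor of monocyte and dendritic cell development, rose by 0.96 (adjusted p = 0.00529). Ly6a, the stem cell antigen Sca-1, which is also an endothelial surface protein, fell by 1.16 on the log2 scale (adjusted p = 0.000796), and Cd48 fell from 7.28 ± 0.31 to 3.63 ± 1.1 CPM (adjusted p = 0.0323). Mycn lost its call without WT replicate 1 (0.0507) and without WT replicate 2 (0.0694), and Cd48 kept its call only without RBPjcKO replicate 1 (0.0249), with a range of 0.0249 to 0.0953 over the 6 fits. The calls of Irf8 and Ly6a held in all 6. The transcription factor Myb, chosen after its values were seen, stood at 0.0268 to 0.0819 CPM in WT and 0.0777 to 0.385 CPM in RBPjcKO and was not tested.

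Growth factors and chemokines that act on these lineages were measured in the same libraries. Of 21 such ligands 16 were tested, with 2 called higher and 2 lower in edgeR's quasi-likelihood test. The neutrophil-attracting chemokines Cxcl2 (chr5:90903899-90905938) and Cxcl1 (chr5:90891245-90893115), which lie on chromosome 5 near Ppbp and Pf4, had log2 fold changes of 1.40 (adjusted p = 0.0169) and 0.82 (0.0447). Csf1, the macrophage growth factor, fell by 1.11 on the log2 scale (0.00569), from 246 to 339 CPM in WT to 117 to 158 CPM in RBPjcKO, and Cxcl12, which retains progenitors and neutrophils in bone marrow, had a log2 fold change of -0.85 (0.0416). The call of Csf1 held in all 6 fits with 1 library left out, Cxcl2 lost its call without WT replicate 2 (0.056), Cxcl1 lost it in all 6 (0.052 to 0.132) and Cxcl12 kept it only without RBPjcKO replicate 3 (0.00473, against 0.0719 to 0.116 in the others).

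Of 13 receptors for such factors 12 were tested, 1 was called higher and 2 lower in edgeR's quasi-likelihood test. Csf2rb2, a beta subunit of the interleukin 3 receptor in mice, had a log2 fold change of 1.04 (adjusted p = 0.00368), and Lifr, the receptor for leukaemia inhibitory factor, one of -1.29 (0.00477). Both calls held in all 6 fits with 1 library left out. Osmr, the receptor for oncostatin M, had a log2 fold change of -0.87 (0.0201) and lost its call without WT replicate 1 (0.0524), WT replicate 2 (0.0789) and RBPjcKO replicate 2 (0.066).

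Lists of other cell types were summed in each library to show what else moved with the granulocyte genes. The 12 pan-leukocyte genes summed to 508 to 665 CPM in WT and 594 to 709.8 CPM in RBPjcKO, and 0 were called in edgeR's quasi-likelihood test, with 2 higher and 0 lower both by DESeq2 and at an unadjusted p under 0.05. The 12 Kupffer cell genes summed to 1679 to 3211 CPM in WT and 747 to 2140 CPM in RBPjcKO. The 12 lymphocyte genes summed to 54.4 to 60.2 CPM in WT and 19.1 to 59.2 CPM in RBPjcKO, and the 14 monocyte genes to 1299 to 1545 and 1076 to 1546 CPM. The ranges of all 4 sums overlapped between the groups. Of the Kupffer cell genes 0 had a log2 fold change above 0, with a median of -0.97. The iron exporter Slc40a1 was the 1 called lower in edgeR's quasi-likelihood test (log2 fold change -1.30, adjusted p = 0.00671), with 2 lower by DESeq2 and 4 at an unadjusted p under 0.05, and 1 to 3 were called lower with 1 library left out, 3 of them without RBPjcKO replicate 1. Irf8, described above, was the 1 monocyte gene called, and 2 were called without WT replicate 1. The B cell genes Ms4a1 and Cd79a were called higher (2.19 and 1.32, adjusted p = 0.0285 and 0.0166 in edgeR). Ms4a1 kept its call only without WT replicate 3 (0.0485) and RBPjcKO replicate 3 (0.0484), and Cd79a lost it without WT replicate 2 (0.0642). Without RBPjcKO replicate 2, 5 lymphocyte genes were called lower, and without WT replicate 2, 1 was. The 11 stellate cell and fibroblast genes summed to 1877 to 2118 CPM in WT and 1212 to 1899 CPM in RBPjcKO with 3 called lower. The 8 cholangiocyte genes summed to 196 to 405 and 87.9 to 127 CPM with 5 called lower. Of all genes tested 7.74% were called lower. With 1 library left out the stellate count was 1 without WT replicate 1, WT replicate 2 or RBPjcKO replicate 2 and 2 to 4 otherwise. The cholangiocyte count was 2, 1 and 4 without WT replicates 1, 2 and 3, 0 without RBPjcKO replicate 1 or 2 and 2 without RBPjcKO replicate 3.

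Hepatocyte transcripts moved with the granulocyte genes. The 15 hepatocyte genes summed to 1953, 999 and 1287 CPM in WT and 1362, 1957 and 4349 CPM in RBPjcKO. In edgeR's quasi-likelihood test 5 were called higher (9.0% of all genes higher) and 0 lower. The counts were 10 and 0 by DESeq2 (12.9% of all genes higher), and 11 and 0 at an unadjusted p under 0.05. The edgeR count was 2 without WT replicate 1 (7.07% of all genes higher) and 0 without WT replicate 2 (3.09%) or 3 (5.75%). It was 9 without RBPjcKO replicate 1 (6.51%) and 3 without RBPjcKO replicate 2 (5.60%) or 3 (5.81%). RBPjcKO replicate 3 was the highest library and WT replicate 1 the highest WT library, as for the secondary-stage genes. The 17 cell division genes summed to 248, 242 and 319 CPM in WT and 567, 377 and 572 CPM in RBPjcKO. Of these genes 13 were called higher in edgeR, beside 9.0% of all genes tested, and their median log2 fold change was 2.31. Their lowest RBPjcKO library was replicate 2, whereas that of the primary granule genes was replicate 1. The part of hepatocyte transcripts and of dividing cells in the granulocyte values was not tested.

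**Figure D5:**
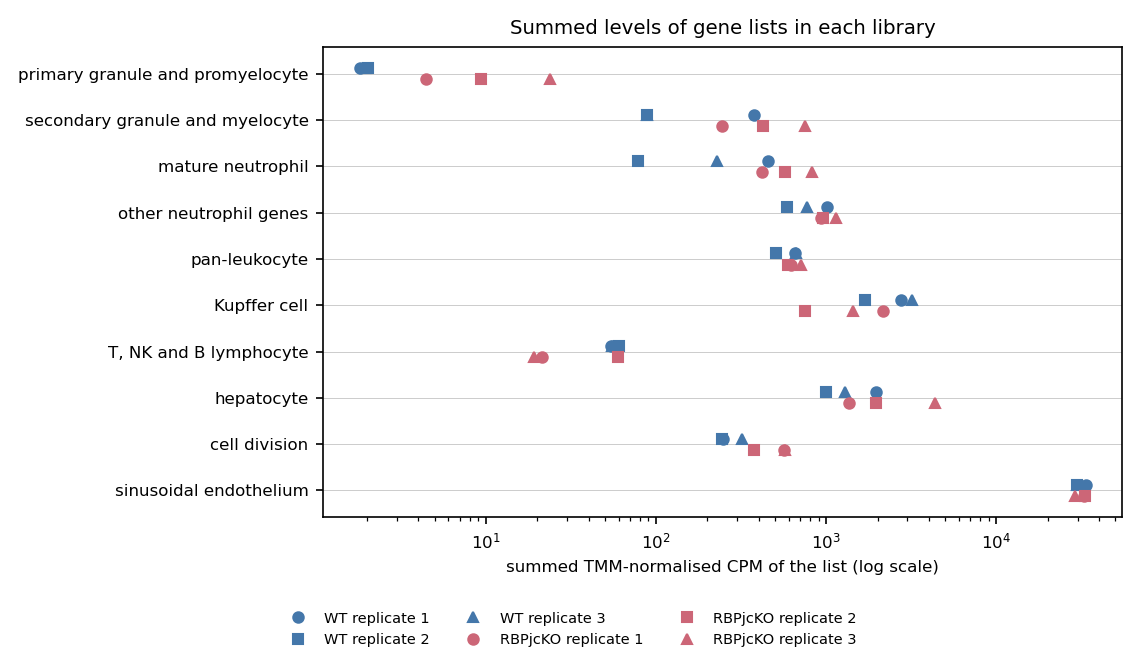
Summed TMM-normalised CPM (log axis) of the granulocyte classes and of lists of other cell types, 1 symbol per library with WT in blue and RBPjcKO in red. The sum of the 6 primary granule and promyelocyte genes is 1.8 to 2.01 CPM in WT and 4.43 to 23.8 CPM in RBPjcKO. The groups do not overlap in it, and Gfi1 alone holds 1.26 to 1.52 CPM of it in WT. The sums of the secondary-stage genes (88.2 to 378 and 242 to 746 CPM) and of the pan-leukocyte genes overlap.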

How the data were processed

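RNA sequencing of LSECs was compared between 3 WT and 3 RBPjcKO libraries, grouped by the genotype label. The submitters' processing notes name TopHat2 2.0.13 and the builds mm10 and GRCm38. The counting tool, annotation and strand setting are not stated in the labels, and reads of overlapping or antisense genes may therefore be misassigned. The authors deposited, per the file headers, an unnormalised read count for every entry in each library, together with RPKM values scaled to gene length and library total. The table held 56825 entries, of which 33353 FANTOM3 cDNA clones were left out. Clones took 15.95% to 17.36% of counts.

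Genes of low count were removed by filterByExpr (10 counts at least, 15 in total), libraries were scaled by TMM, and the groups were compared in edgeR 4.0.16 (R 4.3.3) by its quasi-likelihood test, adjusted by Benjamini-Hochberg over all genes tested. The biological coefficient of variation was 0.204. The SE was approximated by dividing the log2 fold change by the square root of F. The procedure was tested on simulated counts. Alternatives were DESeq2 1.42.0, other filters, thresholds and scalings, a robust fit, clones included, limma 3.58.1 on log2(RPKM + 1) and log2(RPKM + 0.1), and leaving out each library. Levels of different genes are compared by RPKM, and ratios of CPM between genes are compared only from library to library.

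The 36 genes and the 16 further lists were chosen with earlier results of these data known. All 36 are accounted for. Values per library are given for called members and for the most abundant of each class by CPM. Each further list is described by up to 4 called genes of at least 1 CPM, by size of change, and some uncalled or untested genes are named beside them. Values of some genes on these lists are not reported here. Exact 95% intervals are binomial. Promoter windows were searched with Python 3.11.15.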

Additional observations from a re-analysis of the deposited data

How the results depend on the processing

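The number of lineage genes called higher was 5, and it was 2 with a filter of at least 1 CPM in 3 libraries (Mpo and Prtn3), 2 at an adjusted p under 0.01 (Mpo and Prtn3) and 2 with limma on log2(RPKM + 1) (Prtn3 and Ppbp). With 1 library left out it ran from 3 to 14. DESeq2, no filter and a filter of at least 5 counts in 3 libraries each gave 6, and upper-quartile scaling, library totals only, the robust fit, clones included, limma on log2(RPKM + 0.1) and a log2 fold change of at least 1 each gave 5. The number called lower was 0 under every alternative run. Of 476 fold changes recomputed for the 30 tested genes, 450 kept their side of the threshold, 13 passed it and 13 no longer did, and 8 values of 3 uncalled genes changed sign. Elane and Fcnb kept their call in 1 and 2 of the 6 fits with 1 library left out, and Mpo, Elane, Fcnb and Ppbp rest on few WT counts, which limits the precision of their fold changes. No paired analysis was possible because the titles number the libraries 1 to 6 across both groups, and the replicate numbers used here were given in accession order and pair nothing.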
